A study of Mus musculus with 11 samples.

Results

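The genes described here are 50 organic ion and drug transporters of the mouse, out of 53801 genes counted in kidney, of which 22058 were protein coding. They were taken by name from the deposited gene table as every protein coding gene of the Slc22a, Slco, Slc47a and Abcc families, with the carnitine transporter gene Slc22a5 left out. That gave 24 Slc22a, 14 Slco, 2 Slc47a and 10 Abcc genes, and no measured value entered the choice. Bulk RNA-Seq of the kidney cortex compared 6 Cpt1aCKO mice with 5 floxed control mice, with 1 library per mouse. All 11 mice were male and on a mixed background. They ate doxycycline food for 3 weeks, from 5 to 8 weeks of age, and were then aged for 2 years. In Cpt1aCKO mice, floxed Cpt1a was deleted by Cre from the Pax8-rTTA;tetO-Cre transgenes, which doxycycline switches on in the renal tubule, so that cells outside the tubule kept the gene. The labels do not say whether floxed controls carried a Cre transgene, and they give no litters or pairs.

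The proximal tubule clears drugs, toxins and metabolic waste from blood by a relay of carriers. Organic anion and organic cation transporters of the Slc22 family take solutes up across the basolateral membrane, and multidrug and toxin extrusion proteins (Slc47 family) and several ATP-driven multidrug resistance-associated proteins (Abcc family) release them into the urine. Organic anion transporting polypeptides (Slco family) carry larger anions such as steroid conjugates, and other Slc22 members at the apical membrane take urate and other anions back. The comparison asks whether mRNA of these carriers differed between aged kidneys with and without tubular carnitine palmitoyltransferase 1A, the entry enzyme of mitochondrial fatty acid oxidation.

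Between 43027049 and 57459929 reads fell on genes in Cpt1aCKO libraries, and between 39628721 and 56241595 in floxed control libraries. Levels are given as CPM, read counts corrected for library size with TMM factors, and between genes as CPM per kb of exon. Cpt1a itself stood at 66.5 ± 21.1 CPM in Cpt1aCKO mice (SD, n = 6) and 472 ± 54.4 CPM in floxed controls (SD, n = 5), and all 6 Cpt1aCKO mice lay below all floxed controls. One library stood apart: olfactory receptor genes, which the kidney hardly uses, summed to 158 CPM in Cpt1aCKO mouse S7602, against 8.89 to 21.6 CPM in the other Cpt1aCKO mice and 10.9 to 40.8 CPM in floxed controls. The 9 transporters with too few reads to test also held 117 reads together in S7602, against 14 to 36 in the other Cpt1aCKO mice and 5 to 38 in floxed controls. Counts of transporters and the fits of some of them are therefore also given without this library, but other results are not. In bulk tissue, fewer cells of a type and less RNA per cell cannot be told apart.

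Transporter mRNA of the aged kidney differed little in sum between the genotypes. All 50 genes together made up 7687 ± 514 CPM in Cpt1aCKO mice (SD, n = 6) and 7972 ± 385 CPM in floxed controls (SD, n = 5), or 0.769% of normalized counts in Cpt1aCKO mice and 0.797% in floxed controls. Of the 41 transporters with enough reads to test, 18 had a positive and 23 a negative log2 fold change (Cpt1aCKO over floxed control). The median log2 fold change was -0.032, against 0.0060 over all 18160 genes tested. None passed edgeR's quasi-likelihood test at a Benjamini-Hochberg adjusted p under 0.05, and the smallest adjusted p was 0.823. Over all genes 0.0165% passed that test, so a count of 0 among 41 is near the background. DESeq2 called none of the 41 either, with 0.275% of all genes called, and limma voom none.

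At an unadjusted edgeR p under 0.05, 2 transporters were higher in Cpt1aCKO mice, Abcc4 and Slc22a21, with 3.35% of all genes called in that direction. In the other direction 1 was lower, Slc22a7, with 2.57% of all genes called. Together these were 7.32% of the transporters tested, against 5.93% of all genes, so the share is near the background. At the same unadjusted threshold DESeq2 gave 2 higher and 2 lower, with 3.81% and 2.91% of all genes, and voom 2 higher and 2 lower, with 3.21% and 2.89%. In no transporter did the 6 Cpt1aCKO mice lie entirely above or entirely below the 5 floxed controls, as 0.611% of all genes tested did. Without S7602, edgeR gave 1 transporter higher (Abcc4) and 4 lower (Slc22a19, Slc22a28, Slc22a7 and Slc22a6) at an unadjusted p under 0.05, with 3.69% and 2.98% of all genes, and still none at the adjusted threshold.

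**Figure D1:**
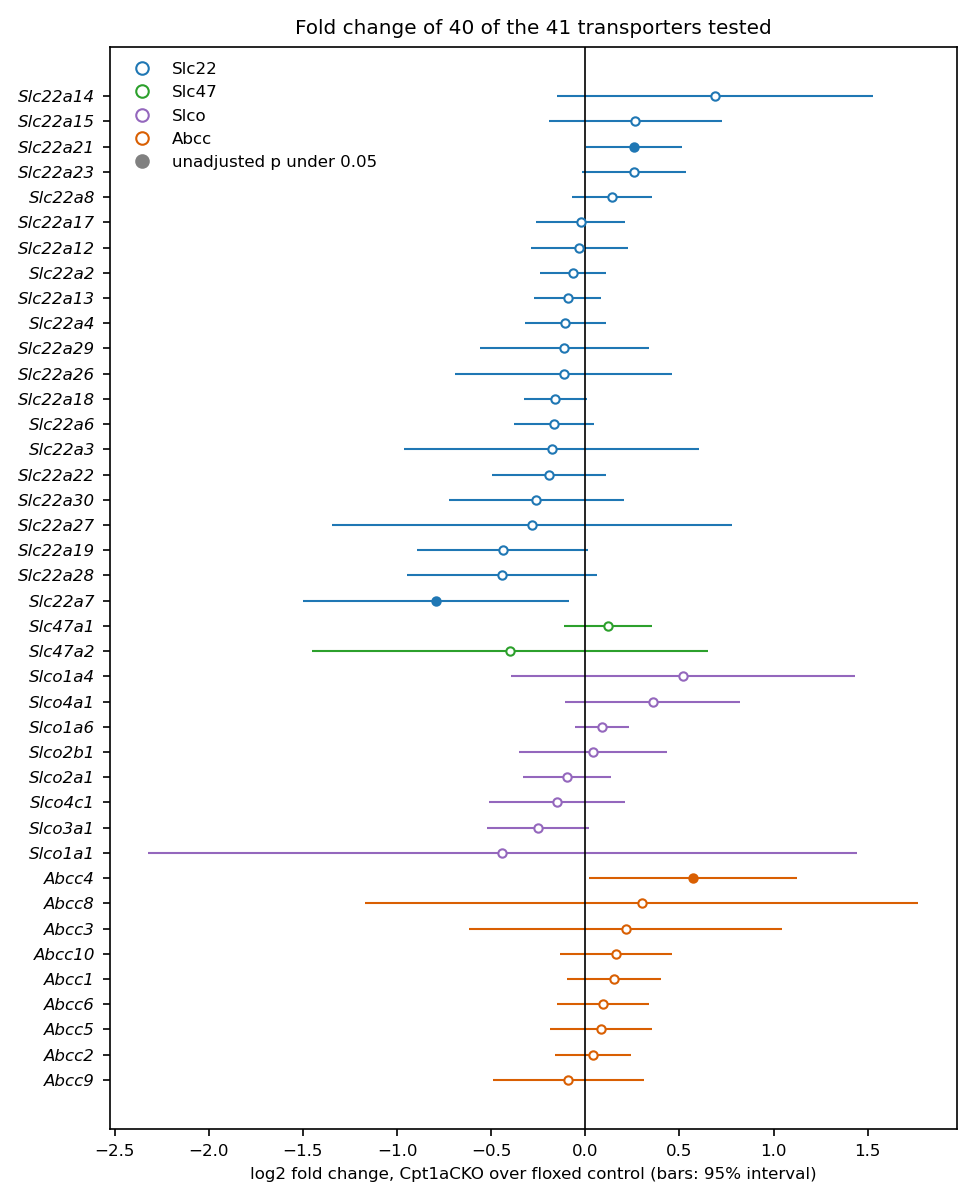
Log2 fold change (Cpt1aCKO over floxed control, x axis) of 40 of the 41 transporters tested, 1 row per gene, coloured by family, with bars for the 95% interval from edgeR. Filled points mark the 3 genes at an unadjusted p under 0.05, Slc22a21, Slc22a7 and Abcc4, and most of the other points lie near 0.

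Many of the differences were estimated closely. Of the 41, 32 had a log2 fold change between -0.3 and 0.3, and for 32 the whole 95% interval lay within 1 log2 unit of 0. Among the 37 transporters at 1 CPM or more in floxed controls, the median coefficient of variation (SD over mean) was 18.0% in Cpt1aCKO mice and 16.5% in floxed controls. The families leaned different ways, which was not tested. Of the Abcc genes, 8 of 9 had positive fold changes (median log2 fold change 0.15), and 17 of 22 Slc22a genes had negative ones (median -0.11). Over all genes tested, 51.4% were positive. The Slco genes split 4 and 4 (median -0.029), and the 2 Slc47a genes had opposite signs.

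The order of levels was also much the same. Slc22a18 had the highest level per length in both genotypes and Slc22a12 was also among the highest, at 559.8 and 370.0 CPM per kb in Cpt1aCKO mice, against 624.9 and 378 CPM per kb in floxed controls. Slc22a6, Slc22a8, Slc22a2 and Slc47a1 followed Slc22a12 in both genotypes, in a different order. The 7 highest transporters per length made up 76.7% of the summed transporter CPM in Cpt1aCKO mice and 75.7% in floxed controls, and the largest absolute log2 fold change among them was 0.17. At the other end, 7 tested transporters averaged under 1 CPM per kb in floxed controls, Slc22a3, Slc22a27, Slc22a14, Slco1a4, Slc22a15, Slc47a2 and Abcc8.

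**Figure D2:**
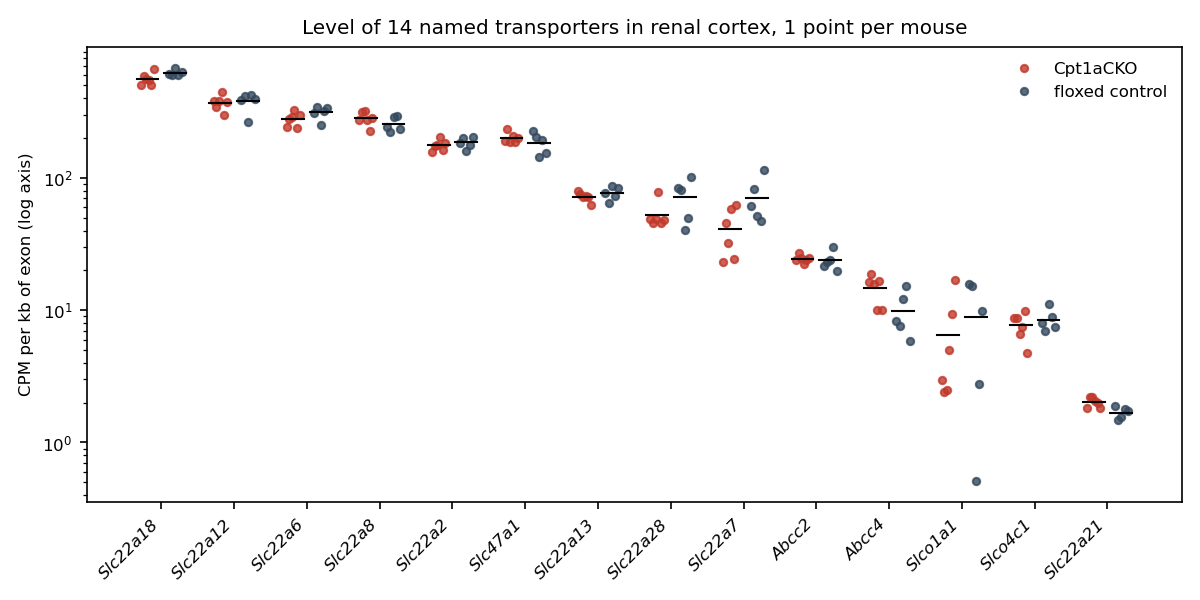
Level (CPM per kb of exon, log axis) of 14 transporters named by the rule, with 1 point per mouse, Cpt1aCKO (red, n = 6) left of floxed control (dark blue, n = 5), and black lines at the means. The groups overlap for every gene, and Slco1a1 spreads most between mice.

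Slc22a6 and Slc22a8 encode OAT1 and OAT3, the basolateral carriers through which the proximal tubule takes up organic anions, including many drugs and uremic toxins, in exchange for dicarboxylates. Both lie in a run of 8 transporter genes on chromosome 19 (chr19:7673061-8628299 in GENCODE M21, GRCm38).

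Slc22a6 stood at 943, 1133 and 1295 CPM (lowest, median and highest) in Cpt1aCKO mice, and at 991, 1237, 1268, 1354 and 1375 CPM in floxed controls. Among Cpt1aCKO mice, 4 lay inside the floxed control range and 2 lay below it. This gave a log2 fold change of -0.17 ± 0.099 (SE), with a 95% interval of -0.38 to 0.046 (adjusted p = 0.863 from edgeR). Slc22a8 stood at 878, 1097 and 1249 CPM in Cpt1aCKO mice, and at 866, 915, 948, 1121 and 1155 CPM in floxed controls. Its log2 fold change had the other sign, 0.14 ± 0.10 (SE) (95% interval -0.073 to 0.36, adjusted p = 0.885 from edgeR), and the groups overlapped. The pair of genes thus differed in sign, and neither differed beyond the spread between mice.

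Slc22a7 encodes OAT2, an organic anion carrier of kidney and liver (ENSMUSG00000067144, chr17:46432183-46438457, minus strand). It had the lowest edgeR p of the 41 tested. It stood at 48.2, 81.6 and 131 CPM (lowest, median and highest) in Cpt1aCKO mice, and at 98.7, 107, 128, 172 and 239 CPM in floxed controls. In all, 4 of the 6 Cpt1aCKO mice lay below the lowest floxed control, and the other two, S7602 and S2577, lay inside the floxed control range. Slc22a7 averaged 85.9 ± 35.7 CPM in Cpt1aCKO mice (SD, n = 6) and 149 ± 57.8 CPM in floxed controls (SD, n = 5). Its log2 fold change was -0.79 ± 0.32 (SE), with a 95% interval of -1.501 to -0.087 (unadjusted p = 0.0310 and adjusted p = 0.823 from edgeR). By an exact permutation test over mice, two-sided, p was 0.0519. Without S7602 the log2 fold change was -0.92 (unadjusted p = 0.0218 and adjusted p = 0.706 from edgeR), and without any 1 of 5 other mice the unadjusted p was above 0.05 (at most 0.0932).

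On chromosome 19, 6 of the 8 transporter genes belong to a rodent cluster of close relatives, Slc22a19, Slc22a26, Slc22a27, Slc22a28, Slc22a29 and Slc22a30. Their fold changes were all negative and none passed the test. The signs may not be independent, since some of these genes share sequence. Slc22a27 and Slc22a29 share 29.9% and 28.7% of their 50-base stretches with other genes, most with each other. Slc22a30 shares 34.2%, most with Slc22a28, while Slc22a26 and Slc22a19 share 6.21% and 0.985%. Slc22a28 (ENSMUSG00000063590, chr19:8062209-8131982, minus strand) shares 53.9% of its 50-base stretches with other genes, most with Slc22a30, so that reads could be split or lost between them. It stood at 91.2, 97.1 and 155 CPM in Cpt1aCKO mice, and at 80.2, 99.6, 162, 169 and 204 CPM in floxed controls. In Cpt1aCKO mice, 5 lay close together between 91.2 and 98.1 CPM, and S7602 stood alone at 155 CPM. Its log2 fold change was -0.44 ± 0.23 (SE) (95% interval -0.95 to 0.060, adjusted p = 0.863 from edgeR), and without S7602 it was -0.59 (unadjusted p = 0.0180 and adjusted p = 0.705 from edgeR). Over all 11 fits with 1 mouse left out it ranged from -0.59 to -0.28, the smallest without floxed control S2578 (unadjusted p = 0.231 from edgeR). Slc22a19, the mouse Oat5 gene, was also highest in S7602 among Cpt1aCKO mice, at 69.2 CPM against 39.0 to 43.0 CPM in the other 5. Slc22a19 averaged 46.0 ± 11.5 CPM in Cpt1aCKO mice (SD, n = 6) and 62.4 ± 19.4 CPM in floxed controls (SD, n = 5). Its log2 fold change was -0.44 ± 0.21 (SE) (unadjusted p = 0.0557 and adjusted p = 0.845 from edgeR), and without S7602 it was -0.59 (unadjusted p = 0.00618 and adjusted p = 0.648 from edgeR). S7602 also belongs to a set of mice from both genotypes, described below, which these fits do not allow for. Slc22a30 averaged 99.8 ± 23.8 CPM in Cpt1aCKO mice and 119.6 ± 37.2 CPM in floxed controls, and Slc22a26, Slc22a29 and Slc22a27 lay under 8 CPM on average in both genotypes.

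Urate and other anions are taken back at the apical membrane. Slc22a12, which encodes the urate transporter URAT1, stood at 672, 850.2 and 1017 CPM in Cpt1aCKO mice, and at 602, 879.7, 895, 942 and 961 CPM in floxed controls. One floxed control, S7762, was far below the other 4, and the groups overlapped. The log2 fold change was -0.032 ± 0.12 (SE) (95% interval -0.29 to 0.23, adjusted p = 0.988 from edgeR). Its exons overlap those of Nrxn2 on the opposite strand, and the strand setting of the counting is not given in the sources used here. Slc22a13, the gene of OAT10, averaged 144 ± 11.8 CPM in Cpt1aCKO mice (SD, n = 6) and 154 ± 17.6 CPM in floxed controls (SD, n = 5), a log2 fold change of -0.094 ± 0.084 (SE) (adjusted p = 0.903 from edgeR). It shares 36.0% of its 50-base stretches with other genes, most with the neighbouring Slc22a13b-ps, a polymorphic pseudogene that was not counted among the 50.

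Among the carriers of organic cations, OCT2, encoded by Slc22a2, takes them up across the basolateral membrane, and the proton antiporter MATE1, encoded by Slc47a1, releases them into the urine. Slc22a2 averaged 439 ± 41.5 CPM in Cpt1aCKO mice (SD, n = 6) and 459 ± 44.5 CPM in floxed controls (SD, n = 5), with a log2 fold change of -0.065 ± 0.082 (SE) (95% interval -0.24 to 0.11, adjusted p = 0.940 from edgeR). Slc47a1 averaged 676 ± 59.8 CPM in Cpt1aCKO mice (SD, n = 6) and 622 ± 116 CPM in floxed controls (SD, n = 5), with a log2 fold change of 0.12 ± 0.11 (SE) (95% interval -0.12 to 0.35, adjusted p = 0.903 from edgeR). Neither of this pair differed beyond the spread between mice. Slc47a2, the second antiporter gene, was near the limit of detection at 0.214 ± 0.128 CPM in Cpt1aCKO mice and 0.285 ± 0.0889 CPM in floxed controls. Slc22a3, which encodes OCT3, averaged 1.82 ± 0.827 CPM in Cpt1aCKO mice and 2.06 ± 0.965 CPM in floxed controls.

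Slc22a18, an imprinted gene of the distal chromosome 7 domain whose substrates are little known, had the highest level per length of the 50. It stood at 848, 939 and 1131 CPM in Cpt1aCKO mice, and at 1011, 1021, 1041, 1079 and 1155 CPM in floxed controls. Of the 6 Cpt1aCKO mice, 5 lay below the lowest floxed control and S2577 lay inside the floxed control range. The difference was -0.16 ± 0.078 (SE) on the log2 scale, with a 95% interval of -0.33 to 0.0078 (unadjusted p = 0.0602 and adjusted p = 0.854 from edgeR). With each mouse left out it ranged between -0.21 (without S2577, unadjusted p = 0.00654) and -0.13 (without S7762, unadjusted p = 0.145), and only the fit without S2577 had an unadjusted p under 0.05 in edgeR (adjusted p = 0.369).

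Slc22a21 (ENSMUSG00000063652, chr11:53949965-53980332, minus strand) encodes OCTN3, a carnitine transporter described in the mouse and a neighbour of Slc22a4 on chromosome 11. It was a gene of low level, at 6.64, 7.37 and 8.08 CPM in Cpt1aCKO mice, and at 5.37, 5.67, 6.27, 6.54 and 6.85 CPM in floxed controls. Of the 6 Cpt1aCKO mice, 4 lay above the highest floxed control, and the lowest 2 lay inside the floxed control range. Slc22a21 averaged 7.36 ± 0.619 CPM in Cpt1aCKO mice (SD, n = 6) and 6.14 ± 0.611 CPM in floxed controls (SD, n = 5). This was a log2 fold change of 0.26 ± 0.12 (SE), with a 95% interval of 0.0046 to 0.52 (unadjusted p = 0.0465 and adjusted p = 0.839 from edgeR). Its exact permutation test over mice, on the same values, gave an unadjusted p of 0.0152 (two-sided, where 462 splits allow 0.00216). This was the smallest p of the 41 tests of this kind, and the only 1 of the 41 under 0.05. By chance alone a share of about 0.05 of such tests falls under 0.05. The test was not run over all genes, so the count has no background share. Slc22a21 shares 22.0% of its 50-base stretches with other genes, most with Slc22a5, the related carnitine transporter gene, and which of the pair such reads came from was not tested. Its unadjusted p was above 0.05 without any 1 of 7 mice, S7602 among them (at most 0.110 from edgeR). Slc22a4, which encodes the ergothioneine carrier OCTN1, averaged 75.6 ± 6.86 CPM in Cpt1aCKO mice and 81.3 ± 13.4 CPM in floxed controls.

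The Abcc family pumps conjugated and free anions out of the cell with ATP. Abcc4 encodes MRP4, an apical exporter of organic anions, urate and cyclic nucleotides in the proximal tubule (ENSMUSG00000032849, chr14:118482692-118706219, minus strand), and had the highest log2 fold change of the family. It stood at 63.7, 103 and 120.2 CPM (lowest, median and highest) in Cpt1aCKO mice, and at 37.6, 48.7, 53.4, 77.1 and 97.9 CPM in floxed controls. Of the 6 Cpt1aCKO mice, 4 lay above the highest floxed control, and the other two, S7602 and S2577, lay at 63.7 and 64.4 CPM, inside the floxed control range. Abcc4 averaged 93.6 ± 23.8 CPM in Cpt1aCKO mice (SD, n = 6) and 62.9 ± 24.3 CPM in floxed controls (SD, n = 5). The log2 fold change was 0.57 ± 0.25 (SE), with a 95% interval of 0.019 to 1.13 (unadjusted p = 0.0438 and adjusted p = 0.836 from edgeR). The exact permutation test over mice, two-sided, gave p = 0.0628. Without S7602 the log2 fold change was 0.66 (unadjusted p = 0.0246 and adjusted p = 0.706 from edgeR), and without any 1 of 7 other mice the unadjusted p was above 0.05 (at most 0.0981).

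Promoters (RefSeq, GRCm38.p6, 250 bases before to 50 bases from the start on) were matched for 40 of the 50 transporters, with 47 promoters in all. Abcc4 has 2 of them, and both hold the letters TGACNNNGC, the core of the antioxidant response element. This element is bound by NRF2, a stress-responsive factor known to act on efflux pump genes. In the promoter at chr14:118676882-118677181 (minus strand, not printed) the match begins 23 bases before the start. The promoter at the GENCODE gene start is printed (chr14:118706170-118706469, minus strand). The capitals mark the match, read on the opposite strand, which begins 25 bases before the start.
Abcc4: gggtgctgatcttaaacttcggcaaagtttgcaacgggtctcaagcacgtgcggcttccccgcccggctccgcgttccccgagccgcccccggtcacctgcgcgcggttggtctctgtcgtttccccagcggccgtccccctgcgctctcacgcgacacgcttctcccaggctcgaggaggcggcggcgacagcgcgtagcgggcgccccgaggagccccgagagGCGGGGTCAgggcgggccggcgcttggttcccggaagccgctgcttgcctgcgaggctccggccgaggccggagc
Of the 47 transporter promoters, 9 (19.1%, from 7 genes) held this element on either strand, against 12.4% of all 32851 promoters. Whether these shares differ beyond chance was not tested. Among the 7 genes, log2 fold changes were 0.57 for Abcc4, 0.16 for Abcc10, 0.039 for Abcc2, -0.15 for Slco4c1 and -0.28 for Slc22a27. The others, Slc22a20 and Slco6d1, had too few reads to test. Other motifs were also searched. The HNF1 letters GTTAAT were in 8.51% of transporter promoters and 7.1% of all promoters. The HNF4 and nuclear receptor repeat letters were in no transporter promoter, and in 0.475% and 0.0396% of all. A match is a description of the letters only. Nfe2l2, the gene of NRF2, averaged 137 ± 10.4 CPM in Cpt1aCKO mice (SD, n = 6) and 119.6 ± 5.98 CPM in floxed controls (SD, n = 5), a log2 fold change of 0.19 ± 0.067 (SE) (unadjusted p = 0.0116 and adjusted p = 0.738 from edgeR). Whether it plays a part in the Abcc4 values was not tested.

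Abcc2 encodes MRP2, the other apical pump of the family, and showed little difference. It averaged 209 ± 13.3 CPM in Cpt1aCKO mice (SD, n = 6) and 203 ± 33.5 CPM in floxed controls (SD, n = 5), with a log2 fold change of 0.039 ± 0.094 (SE) (95% interval -0.16 to 0.24, adjusted p = 0.975 from edgeR). The basolateral pump genes Abcc1 and Abcc3 averaged 26.1 ± 3.69 CPM in Cpt1aCKO mice and 23.5 ± 3.35 CPM in floxed controls for Abcc1, and 9.39 ± 3.73 CPM in Cpt1aCKO mice and 8.08 ± 4.38 CPM in floxed controls for Abcc3. Abcc5, an exporter of cyclic nucleotides, averaged 29.1 ± 5.62 CPM in Cpt1aCKO mice and 27.5 ± 3.07 CPM in floxed controls. Abcc6, whose loss causes ectopic calcification, averaged 23.5 ± 3.55 CPM in Cpt1aCKO mice and 22.0 ± 2.47 CPM in floxed controls. Abcc10 averaged 16.3 ± 2.94 CPM in Cpt1aCKO mice and 14.6 ± 2.26 CPM in floxed controls. Abcc8 and Abcc9 encode sulfonylurea receptors, subunits of potassium channels and not pumps, and Abcc9 was the only tested Abcc gene with a negative log2 fold change, -0.091 ± 0.19 (SE) (adjusted p = 0.971 from edgeR).

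Of the 14 Slco genes, 8 had enough reads to test. Slco1a6, a member expressed in mouse kidney, had the highest level per length of the 8, at 56.1 CPM per kb in Cpt1aCKO mice and 52.7 CPM per kb in floxed controls, and varied little. It averaged 214 ± 13.7 CPM in Cpt1aCKO mice (SD, n = 6) and 201 ± 13.3 CPM in floxed controls (SD, n = 5). Slco4c1, whose human counterpart takes up digoxin and thyroid hormone at the basolateral membrane, averaged 37.6 ± 8.89 CPM in Cpt1aCKO mice (SD, n = 6) and 41.7 ± 8.06 CPM in floxed controls (SD, n = 5), with a log2 fold change of -0.15 ± 0.17 (SE) (95% interval -0.51 to 0.21, adjusted p = 0.929 from edgeR). Slco3a1, a prostaglandin and thyroid hormone carrier, averaged 202 ± 33.7 CPM in Cpt1aCKO mice and 241 ± 39.4 CPM in floxed controls. Slco2a1, the prostaglandin uptake carrier, averaged 38.8 ± 3.87 CPM in Cpt1aCKO mice and 41.6 ± 7.75 CPM in floxed controls, and Slco4a1, a thyroid hormone carrier, averaged 19.1 ± 6.74 CPM in Cpt1aCKO mice and 14.9 ± 2.01 CPM in floxed controls.

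Slco1a1 (Oatp1), an apical carrier of steroid conjugates whose expression in mouse kidney depends on androgen, spread most between mice among transporters at 1 CPM or more in floxed controls. It stood at 12.6, 20.96 and 89.4 CPM (lowest, median and highest) in Cpt1aCKO mice, and at 2.68, 14.6, 52.4, 80.2 and 83.8 CPM in floxed controls. The lowest and highest of the 11 mice, floxed control S7762 and Cpt1aCKO mouse S2577, were 33.4-fold apart, and both genotypes held high and low mice. The log2 fold change was -0.44 ± 0.84 (SE), with a 95% interval of -2.32 to 1.44 that allows a difference of over 1 log2 unit either way (adjusted p = 0.968 from edgeR). With each mouse left out it ranged from -0.999 (without S2577) to -0.12 (without S2152), and an unadjusted p under 0.05 was not reached in edgeR (lowest 0.261).

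A pattern that ran through both genotypes was noticed after the values were seen. Cpt1aCKO mice S7602 and S2577 and floxed controls S2152, S7601 and S2578 had the 5 highest Slc22a7 levels of the 11 mice, and the same 5 mice had the 5 lowest levels of Abcc4 and of Abcc3. Abcc3 was between 4.23 and 5.02 CPM in those 2 Cpt1aCKO mice, and between 4.13 and 6.43 CPM in those 3 floxed controls. In the other mice it was between 11.3 and 12.6 CPM in 4 Cpt1aCKO mice, and was 12.7 and 12.8 CPM in 2 floxed controls. Slc22a28 and Slc22a19 were highest in 4 of the 5 mice, S7602 and the 3 floxed controls, but not in S2577. The 5 were thus 2 of 6 Cpt1aCKO mice and 3 of 5 floxed controls. The fits without S7602 therefore leave out a Cpt1aCKO mouse of this set, while its 3 floxed controls stay in. The part of this in the larger differences of those fits was not tested.

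Kap, an androgen-dependent gene of the proximal tubule, moved with this order. Kap stood at 9494 and 10878 CPM in Cpt1aCKO mice S7602 and S2577, and at 5264, 5882, 6239 and 6574 CPM in the other 4. In floxed controls it stood at 8948, 10247 and 10518 CPM in S2152, S7601 and S2578, and at 6349.8 and 7432 CPM in S2582 and S7762. The 5 mice above were therefore also the 5 with the most Kap. Slc7a13, an amino acid transporter gene of the last proximal tubule segment, was highest in the same 5 mice, between 525 and 644 CPM in the 2 Cpt1aCKO mice and between 591 and 699.7 CPM in the 3 floxed controls. Slco1a1 followed this order in part. It was highest in S2577, S2152, S7601 and S2578, all among the 5, but Cpt1aCKO mouse S7763 (49.0 CPM) lay above S7602 (26.4 CPM). Cyp7b1, another of the proximal tubule markers, was also highest in the same 5 mice. It stood at 156 and 208 CPM in the 2 Cpt1aCKO mice, and at 185, 229 and 409 CPM in the 3 floxed controls. Levels by mouse were read for only some of the proximal tubule markers. The part of this variation between mice in the Abcc4 and Slc22a7 differences between genotypes was not tested.

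**Figure D3:**
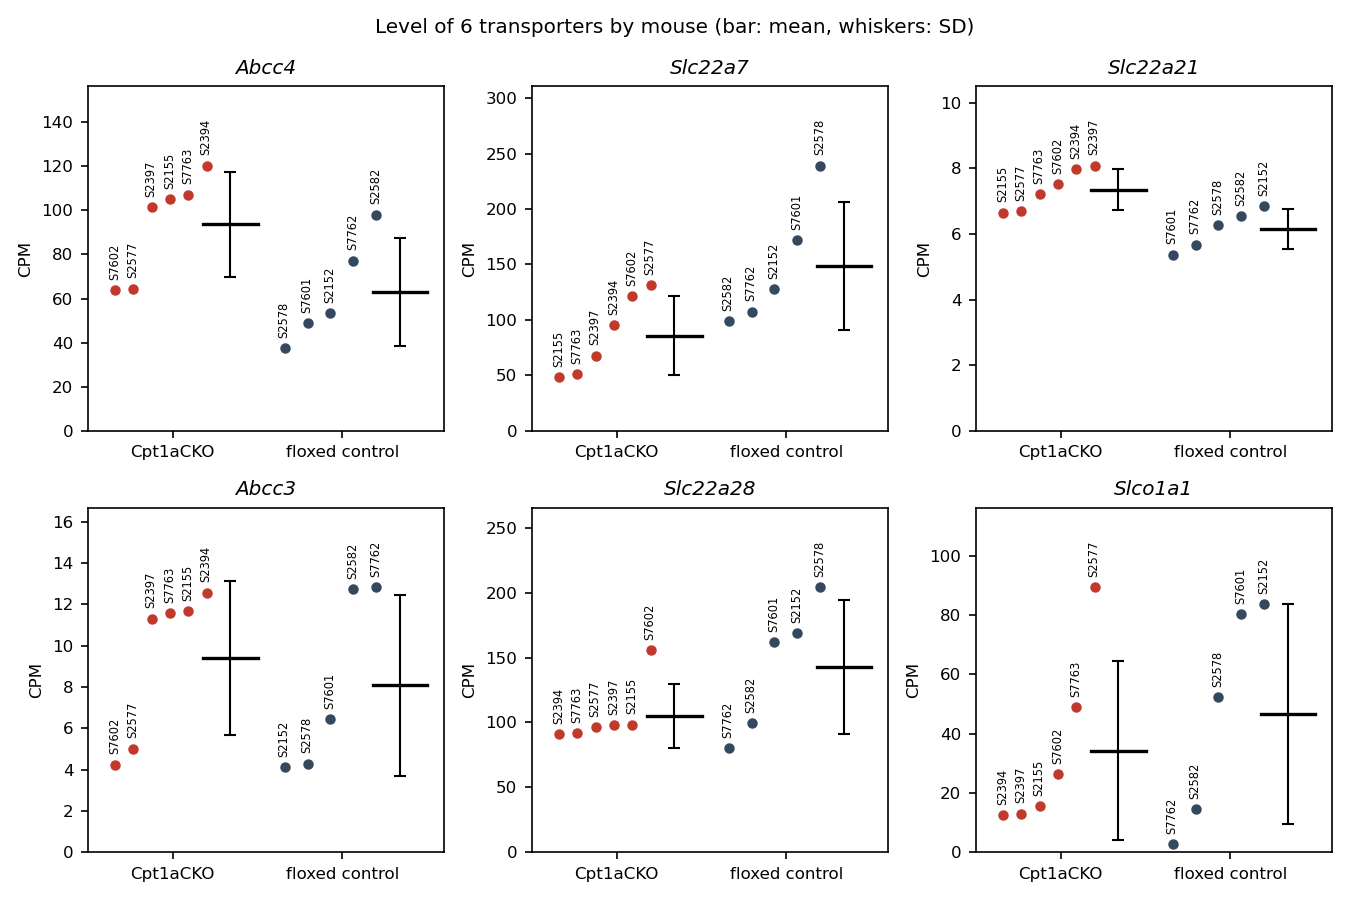
Level (CPM, y axis from 0) in every mouse of the 3 transporters at an unadjusted p under 0.05 (top row) and of 3 that varied widely between mice (bottom row), Cpt1aCKO (red, n = 6) left of floxed control (dark blue, n = 5), with black bars for the mean and whiskers for the SD. S7602 and S2577 are the 2 lowest Cpt1aCKO mice for Abcc4 and Abcc3 and the 2 highest for Slc22a7.

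**Figure D4:**
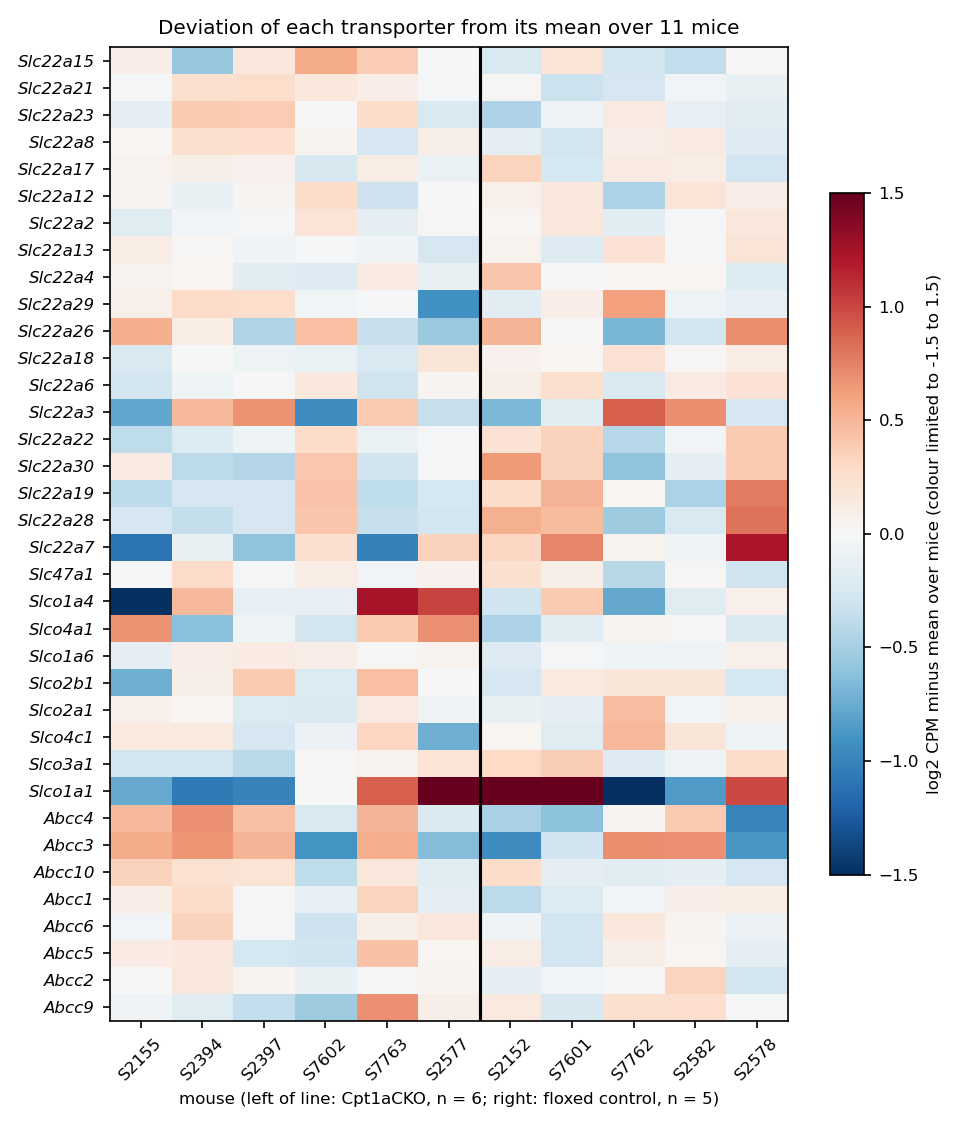
Deviation of log2 CPM from the mean over 11 mice (colour) for 36 of the 37 tested transporters at 1 CPM or more in floxed controls, ordered by family, with 6 Cpt1aCKO mice left of the line and 5 floxed controls right of it. Slco1a1, Slc22a7, Abcc4 and Abcc3 show strong colours on both sides of the line, and the highly expressed carriers such as Slc22a2 are pale throughout.

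None of the other tested members passed either. Slc22a22, which encodes a prostaglandin-specific anion carrier of mouse kidney, averaged 78.8 ± 12.3 CPM in Cpt1aCKO mice and 90.1 ± 19.5 CPM in floxed controls. Slc22a23, an orphan member, averaged 91.5 ± 16.8 CPM in Cpt1aCKO mice and 76.5 ± 11.2 CPM in floxed controls, and Slc22a17, which encodes a lipocalin-2 receptor, averaged 51.3 ± 4.71 CPM in Cpt1aCKO mice and 52.2 ± 9.68 CPM in floxed controls. Slc22a14, known in mouse sperm, had the highest log2 fold change of the 41, 0.69 ± 0.39 (SE), at a level of only 0.772 ± 0.277 CPM in Cpt1aCKO mice and 0.478 ± 0.220 CPM in floxed controls, and did not pass (adjusted p = 0.863 from edgeR). Slc22a15, Slco2b1, a carrier of steroid sulfates, and Slco1a4 averaged between 1.16 and 18.1 CPM in both genotypes and Abcc8 under 1 CPM.

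Too few reads to test were found for 9 members, Abcc12, Slc22a16, Slc22a20, Slco1a5, Slco1b2, Slco1c1, Slco5a1, Slco6c1 and Slco6d1. Slco1a5 was the only one seen in every library, with 3 to 26 reads in Cpt1aCKO mice and 3 to 10 reads in floxed controls. The most reads of Abcc12 (30), Slco6d1 (28), Slco5a1 (23), Slc22a20 (14) and Slc22a16 (2) were all in S7602, the library with many olfactory receptor reads. Slco6c1 had 1 read in 1 Cpt1aCKO mouse and none in floxed controls. At this depth differences in these 9 genes were not detectable.

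Organic anion uptake is driven by dicarboxylates that sodium cotransporters bring in, and several carriers are anchored by PDZ scaffolds. Of 11 such genes, all tested, none were higher and 3 were lower at an unadjusted edgeR p under 0.05 (over all genes, 3.35% and 2.57%), with none passing after adjustment and a median log2 fold change of -0.057. Slc13a2, the apical dicarboxylate cotransporter gene, averaged 51.8 ± 2.65 CPM in Cpt1aCKO mice (SD, n = 6) and 67.0 ± 10.8 CPM in floxed controls (SD, n = 5) (adjusted p = 0.483 from edgeR). Slc9a3r1, which encodes the scaffold NHERF1, averaged 478 ± 58.3 CPM in Cpt1aCKO mice (SD, n = 6) and 554 ± 22.8 CPM in floxed controls (SD, n = 5) (adjusted p = 0.773 from edgeR). Atp1b1, the sodium pump beta subunit gene, averaged 1199 ± 54.2 CPM in Cpt1aCKO mice (SD, n = 6) and 1330.5 ± 116 CPM in floxed controls (SD, n = 5) (adjusted p = 0.833 from edgeR).

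Of 22 other carriers of organic solutes and drugs, such as P-glycoprotein and nucleoside carriers, 21 were tested, and none were higher and 1 was lower at an unadjusted edgeR p under 0.05 (again against 3.35% and 2.57% of all genes), with a median log2 fold change of -0.097. That gene was Slc16a9, a carrier linked to carnitine efflux and urate, which averaged 163 ± 24.1 CPM in Cpt1aCKO mice (SD, n = 6) and 200.4 ± 13.1 CPM in floxed controls (SD, n = 5) (adjusted p = 0.674 from edgeR). Abcb1a, which encodes a P-glycoprotein, averaged 14.6 ± 3.01 CPM in Cpt1aCKO mice (SD, n = 6) and 10.4 ± 5.18 CPM in floxed controls (SD, n = 5) (unadjusted p = 0.113 and adjusted p = 0.863 from edgeR). Of 11 transcription factor genes known to act on these carriers, 10 were tested. Among them, those higher at an unadjusted edgeR p under 0.05 were Nfe2l2, given above, and Nr1h4, the bile acid receptor gene FXR, which averaged 177 ± 13.1 CPM in Cpt1aCKO mice (SD, n = 6) and 152 ± 23.9 CPM in floxed controls (SD, n = 5) (adjusted p = 0.830 from edgeR).

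Markers were read for the makeup of the cortex in each genotype, with counts at an unadjusted p to be set against 3.35% of all genes higher and 2.57% lower. The 12 proximal tubule markers summed to 26090 to 34388 CPM in Cpt1aCKO mice and 29802 to 37345 CPM in floxed controls, with none higher and 1 lower at an unadjusted edgeR p under 0.05. That marker was Miox, the inositol oxygenase of the proximal tubule, which averaged 3344 ± 426 CPM in Cpt1aCKO mice (SD, n = 6) and 4379 ± 376 CPM in floxed controls (SD, n = 5) (adjusted p = 0.446 from edgeR and 0.0379 from DESeq2). The 5 macrophage markers summed to 98.4 to 148 CPM in Cpt1aCKO mice and 82.9 to 120.4 CPM in floxed controls, with 2 higher at an unadjusted p, C1qa and C1qb. The 4 tubule injury markers summed to 21.9 to 55.9 CPM in Cpt1aCKO mice and 13.4 to 35.8 CPM in floxed controls, with Vcam1 higher at an unadjusted p. The 4 T cell markers summed to 2.14 to 8.18 CPM in Cpt1aCKO mice and 1.66 to 2.51 CPM in floxed controls, with Cd4 higher (adjusted p = 0.455 from edgeR and 0.0334 from DESeq2). The 4 thick ascending limb markers summed to 3628 to 4927 CPM in Cpt1aCKO mice and 3818 to 5023 CPM in floxed controls, with 2 lower at an unadjusted p, and the 3 distal convoluted tubule markers to 645 to 896 CPM in Cpt1aCKO mice and 675 to 909 CPM in floxed controls, with 1 lower. No marker of the collecting duct, podocyte, endothelial, stromal or erythroid lists passed at an unadjusted p. No marker of these lists was at 0 in all libraries, and the part of these differences in the transporter values was not tested.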

How the data were processed

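Bulk RNA-Seq of kidney cortex was available for 6 Cpt1aCKO and 5 floxed control mice, grouped by the genotype in the sample labels. The authors' deposited raw read counts come from stranded mRNA libraries, and the submitters' processing notes name STAR 2.7.3a, HTSeq, Cufflinks 2.2.1 and DESeq2. Not given in the sources used here were the build, the annotation, the HTSeq version and its strand setting. The deposited normalized values, fold changes and p-values of the authors' own comparison were not used. Positions, exon lengths and shared 50-base stretches came from GENCODE M21, where 53706 of 53801 identifiers (99.82%) were found, and promoters from RefSeq (GRCm38.p6).

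Raw counts were read into R 4.3.3 (package data.table, 1.17.8). The filterByExpr filter kept 18160 genes. After TMM normalization, a robust quasi-likelihood model was fitted in edgeR 4.0.16, with Benjamini-Hochberg adjustment over every gene kept. Intervals use the fit's degrees of freedom, and log2 CPM per mouse used a prior count of 2. For each of the 41 transporters tested, all 462 splits of the mice were also enumerated in an exact permutation test (two-sided). Each mouse is 1 library, and the labels do not give litters. No library was a copy of another, since the smallest chi-square per gene over all 55 pairs of libraries was 24.6. The scripts were tested on simulated data. The transporters named were those at an unadjusted edgeR p under 0.05, those whose groups do not overlap, the 10 with the highest CPM per kb in floxed controls and 10 well-known drug carriers, of which 14 are reported, and up to 4 genes of each further list by smallest p. Other members are named so that each is accounted for, although some results are not reported here. The members and lists were chosen with earlier results of these data known. Alternatives were DESeq2 1.42.0, voom (limma 3.58.1), edgeR without the robust option, other scalings and filters (no filter, or at least 1 CPM in 5 libraries), the number series of the mouse names (S2 or S7) as a covariate or alone, and each mouse left out in turn.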

Additional observations from a re-analysis of the deposited data

Results flagged for a closer look

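In 41 transporters and 2 genotypes, 82 groups of mice were searched for a mouse far from the rest by Dixon's criterion, which chance meets in about 1 of 20 groups, and 6 groups met it. Slc22a28 at 155 CPM and Slc22a19 at 69.2 CPM were both far above the other Cpt1aCKO mice in S7602, where the nearest values were 98.1 and 43.0 CPM. S7602 was also among the mice with the most Kap, given above. Slc22a29 was far above the other floxed controls in S7762, at 9.32 CPM against a next value of 6.51 CPM, and far below the other Cpt1aCKO mice in S2577, at 3.23 CPM against 5.91 CPM. Slc22a12 was far below the other floxed controls in S7762, at 602 CPM against 879.7 CPM. Abcc10 was far above the other floxed controls in S2152, at 18.5 CPM against 14.0 CPM.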

How the results depend on the processing

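Under all 21 alternatives no transporter passed at an adjusted p under 0.05, and Cpt1a was lower in each, at an adjusted p under 0.05 in all but the S7 mice alone (log2 fold change -2.43, adjusted p = 0.0697 from edgeR). Transporters higher at an unadjusted p under 0.05 numbered 0 with no filter, with the number series as a covariate and in the S2 or the S7 mice alone (5.95%, 3.17%, 2.49% and 2.37% of all genes), and 0 to 3 with each mouse left out (2.52% to 5.24%). Transporters lower numbered 2 with DESeq2, with voom and without the robust fit (2.91%, 2.89% and 2.57% of all genes), 3 with no filter (2.53%), 6 in the S2 mice alone (2.06%), 0 in the S7 mice alone (0.942%), and 0 to 7 with each mouse left out (1.74% to 4.09%), the 7 without floxed control S7762 (2.4%). The median log2 fold change was 0.012 in the S2 mice alone, 0.023 in the S7 mice alone and -0.048 to 0.022 with each mouse left out. Slc22a7 kept an unadjusted p under 0.05 in 6 of 11 such fits and was above it without S2155, S2397, S7763, S7601 or S2578 (-0.96 to -0.56, p at most 0.0932 from edgeR). Abcc4 kept it in 4 of 11 and not without S2155, S2394, S2397, S7763, S2152, S7601 or S2578 (0.43 to 0.79, p at most 0.0981), and Slc22a21 in 4 of 11 and not without S2394, S2397, S7602, S7763, S7601, S7762 or S2578 (0.22 to 0.30, p at most 0.110). Some signs turned. In the S7 mice alone log2 fold changes were 0.13 for Slc22a12, -0.022 for Slc22a8, 0.023 for Slc22a2, 0.030 for Slc22a28 and -0.025 for Abcc2. Slco1a1 was 0.021 with voom. With each mouse left out, Slc22a12 was between -0.14 and 0.024 (positive without S7601, S2582 or S7763) and Abcc2 between -0.019 and 0.14 (negative without S2578). The cause of these shifts was not tested. No paired analysis was possible because the labels give neither litters nor pairs. Transporters under 1 CPM are limited by depth.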
